A study of Mus musculus with 12 samples.

Results

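H3K4me3 in the medial ganglionic eminence (MGE) was compared with H3K4me3 in the cortex (CTX) of wild-type C57BL/6J mouse embryos, for which CUT&Tag had been performed on microdissected tissue. In this assay a transposase tethered by an anti-H3K4me3 antibody cuts out marked DNA, which is then sequenced. The comparison used 6 of the 12 libraries of the series, 3 from MGE and 3 from CTX, which came from 2 biological replicates in each region. The lateral and caudal ganglionic eminences (LGE and CGE), with 2 and 4 libraries, served for reference. The study dates the tissue to embryonic day 12.5, whereas the protocol in the sample labels names embryonic days 12.5 and 14.5 and describes the cortex as somatosensory. That protocol also describes mixing nuclei of the 4 regions in equal numbers, although each library is labelled with 1 region, and the labels were used as given. Embryos of both sexes were pooled for each region, and neither region carried a transgene or received a treatment.

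Replicates had been merged before peaks were called, so each region had 1 list of broad peaks. There was therefore no replicate error, no comparison below carries a p-value, and intervals in brackets cover counting error alone. Members were the 21938 protein-coding genes of chromosomes 1 to 19, X and Y, and the 29498 intervals formed by joining overlapping or touching peaks of both lists. For each gene the bases covered by peaks within 5 kb of its annotated transcription start sites (TSSs) were counted in each list. A gene was called higher in 1 list when its covered bases were at least 2 times those in the other list and at least 500 bases more. Its percentile was the share of genes with fewer covered bases in the same list, with tied genes given the middle of their shared range.

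H3K4me3 marks the promoters of active genes and of genes held ready for activity, and wide domains of the mark lie over genes that set cell identity. In the embryonic forebrain the MGE lies ventrally, depends on sonic hedgehog signalling and the homeodomain factor NKX2-1, and produces GABAergic interneurons and projection neurons. The cortex lies dorsally, depends on factors such as PAX6 and EMX2 in its progenitors, and produces glutamatergic neurons through intermediate progenitors that carry NEUROG2 and EOMES.

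The MGE list held 25335 peaks and the CTX list 21439, with 17.1 and 16.7 Mb covered and median peak widths of 563 and 701 bp. The LGE and CGE lists covered more, 21.6 and 23.5 Mb in wider peaks of 1168 and 1240 bp at the median. Weak peaks, with a −log10 q under 2, made up 27.0% of the MGE list and 11.8% of the CTX list. The files hold no read numbers. The study gives sequencing depths for replicates before merging, which were not used in the counts here. Both MGE replicates had lower depths than any LGE or CGE replicate and than the CTX replicate with a legible depth. The depth of the other CTX replicate is misprinted. Covered bases also depend on depth, and its part in the differences was not tested. Around genes both lists were much alike. Of the 21938 genes, 13631 had a peak in both lists, 623 in MGE alone, 371 in CTX alone and 7313 in neither. The order of the single-list counts depended on weak peaks, and with a −log10 q of at least 2 they were 352 in MGE alone and 493 in CTX alone. Over the 14625 genes with a peak in either list, covered bases had a Spearman rho of 0.876, a description across genes, which are not independent replicates. The median difference, MGE minus CTX, was −21 bases over the genes marked in both lists. None of the 12 housekeeping genes met the rule in either direction, although 8 had more covered bases in CTX and 3 in MGE. Actb had 1565 covered bases in each list, and Gapdh had 1297 in MGE and 2304 in CTX.

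By the rule, 320 genes were higher in MGE, 1.46% of all genes tested, and 268 were higher in CTX, 1.22%. This order was also reversed at a −log10 q of at least 2, with 294 higher in MGE and 349 in CTX. A gene without any peak in the CTX list but with a peak in MGE was found for 2.84% of genes, and the converse for 1.69%. Of 46 ventral genes (progenitor factors, postmitotic factors, GABA and interneuron genes), 19 were higher in MGE (41.3%, Wilson 95% interval 28.3 to 55.7%) and 1 was higher in CTX. Of 36 dorsal genes (progenitor factors and glutamatergic neuron genes), none was higher in MGE (interval up to 9.64%) and 16 were higher in CTX (44.4%, 29.5 to 60.4%). The other 26 ventral and 20 dorsal genes met the rule in neither direction. The gene lists were chosen with earlier results of these data known, so their shares describe the lists and test nothing. Neighbours such as Dlx1 and Dlx2 are not independent, which the intervals ignore. The median percentile difference, MGE minus CTX, was 14.2 points for the ventral genes and −11.4 points for the dorsal genes, beside −0.58 over all genes. With a percentile difference of at least 20 points as the rule, 2.84% of all genes were higher in MGE and 2.91% in CTX, and 21 ventral genes and 14 dorsal genes followed their own side. In these dissected tissues fewer cells of a type and less of the mark per cell cannot be told apart.

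**Figure D1:**
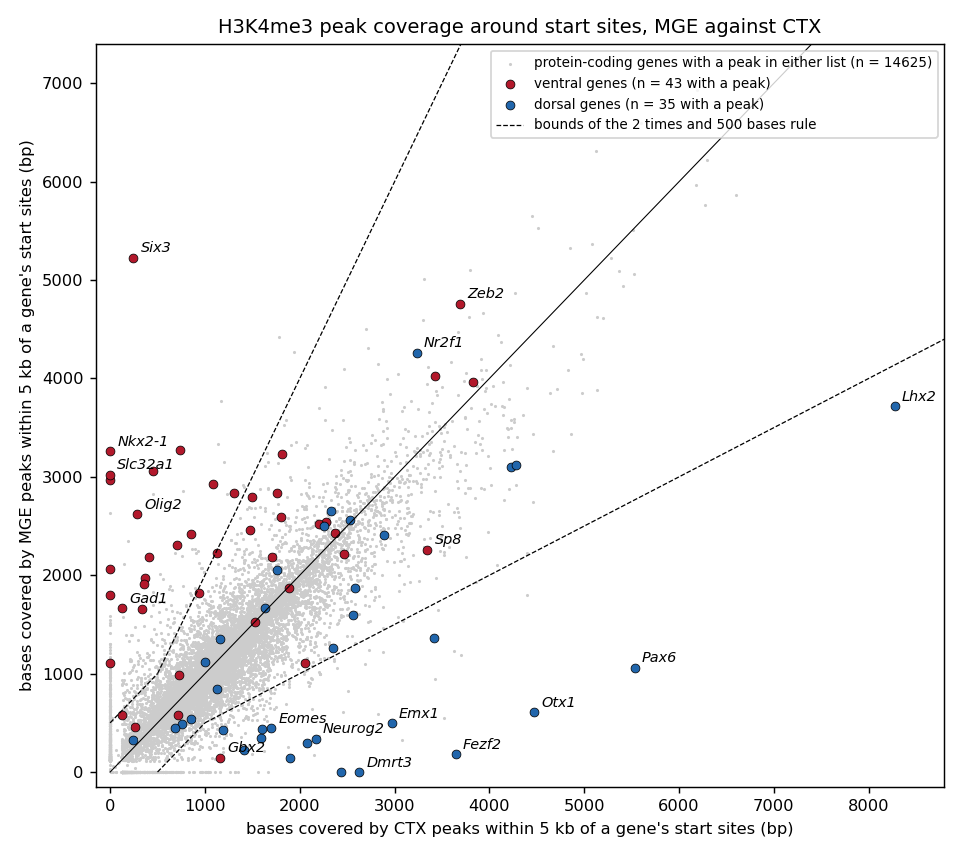
Bases covered by H3K4me3 peaks within 5 kb of a gene's start sites in the CTX list (horizontal axis, bp) and the MGE list (vertical axis, bp), 1 merged list per region. Grey points are all protein-coding genes with a peak in either list, red points ventral genes, blue points dorsal genes, the solid line marks equal values and the dashed lines the rule; Six3 (5226 in MGE, 245 in CTX) and Pax6 (1062 and 5534) lie on opposite sides.

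Among the 16 ventral progenitor factors, 9 were higher in MGE and 1 in CTX, and 14 had more covered bases in MGE. Six3, a homeodomain factor of the anterior forebrain (chr17:85613608-85629302), had 5226 covered bases in MGE and 245 in CTX, 21.3 times more in MGE. Nkx2-1, which specifies the MGE (chr12:56531958-56536908), had 3262 in MGE and no CTX peak within the window. Its percentile was 99.2 in MGE and, with all genes at 0, 18.1 in CTX. The basic helix-loop-helix factors Olig2 and Olig1 had 2621 and 1662 covered bases in MGE and 283 and 334 in CTX. Gsx2 and Gsx1, homeodomain factors of ganglionic eminence progenitors, had 1910 and 1801 in MGE and 356 and 0 in CTX. The difference at Gsx1 was 283 bases at a −log10 q of at least 2, which ended its call. The remaining members higher in MGE were Nkx6-2 (1974 and 366), Vax1 (2925 and 1085) and Dlx1 (2832 and 1307). The absence of a CTX peak was therefore limited to Nkx2-1 and Gsx1 in this list, and the other 7 kept a shorter marked stretch there.

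Several ventral progenitor factors lay within the rule's bounds or beyond them on the other side. Dlx2, with 2227 covered bases in MGE and 1128 in CTX, fell just short at 1.97 times. Otx2 had 2791 and 1494, and Lmo1 had 3232 and 1810. The zinc finger factor Sp8 had 2258 in MGE and 3347 in CTX. Gbx2, a homeobox gene, was the 1 ventral gene higher in CTX, with 145 covered bases in MGE against 1162 in CTX. Its MGE peak spanned 145 bp at a −log10 q of 6.15 and its CTX peak spanned 1162 bp at 2.01, so the wider peak was the weaker.

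Of the 18 postmitotic factors of ventral neurons, 5 were higher in MGE and none in CTX. Lhx6, the LIM homeodomain factor that follows NKX2-1 in MGE interneurons, had 3057 covered bases in MGE and 451 in CTX. All of the 451 bases lay in 1 CTX peak that began 13781 bp downstream of the gene's 5′ end, where MGE also had a peak of 572 bp. Lhx8, a related factor of ventral cholinergic neurons, had 2066 and 0, and Sp9 had 2973 and 0. Dlx5 and Dlx6, adjacent homeobox genes of GABAergic neurons, had 2416 and 2183 in MGE and 857 and 408 in CTX. The other 13 postmitotic factors included genes used by both kinds of neuron. Sox6 had 3966 and 3830 covered bases, Satb1 4030 and 3428, Zeb2 4758 and 3694 and Maf 2546 and 2281. Npas1 had no peak in either list.

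Among the 12 GABA and interneuron genes, 5 were higher in MGE and none in CTX. Slc32a1, the vesicular GABA transporter (chr2:158610767-158615748), had 3022 covered bases in MGE and none in CTX. Its single MGE peak, of 3022 bp, was the widest of the 8188 intervals found in MGE alone. Gad1 and Gad2, which make GABA from glutamate, had 1663 and 2303 in MGE and 129 and 710 in CTX. With start sites reduced to the gene's 5′ end, the difference at Gad1 was 0 bases. Npy, a neuropeptide of later interneurons, had 1111 and 0. Among markers of interneuron classes, Sst and Pvalb had no peak in either list and Calb1 had 584 and 122. The receptor genes for migration gave smaller differences, with Erbb4 at 2835 and 1757, Ackr3 at 1824 and 937 and Cxcr4 at 1869 and 1890.

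Members of the sonic hedgehog pathway moved in both directions, and this list of 12 was not counted as ventral. The ligand gene Shh had 1496 covered bases in MGE and 0 in CTX. The transcriptional target and effector Gli1 had 2246 and 925. Both were among the 3 members higher in MGE. Ptch1, the main receptor and also a target, had 5099 and 3792, and Hhip, which binds the ligand, had 1432 and 1274. The co-receptor Cdon was higher in CTX, with 1129 in MGE and 2357 in CTX. The co-receptor Boc had 1080 and 1910, and the effectors Gli2 and Gli3 had 1536 and 2069 in MGE and 2740 and 2504 in CTX. Of the genes named here, Shh, Gli1 and Cdon met the rule, and Ptch1, Hhip, Boc, Gli2 and Gli3 did not. Of all 12 members, 5 had more covered bases in MGE and 7 in CTX.

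Among the 15 dorsal progenitor factors, 10 were higher in CTX and none in MGE. Lhx2, a LIM homeodomain factor required for cortical fate, was the most covered of all genes in the CTX list at 8277 bases, and ranked 81 in the MGE list at 3718. Pax6 (chr2:105668900-105697364) ranked 8 in CTX with 5534 covered bases and 6937 in MGE with 1062. Otx1 had 4469 in CTX and 609 in MGE, 7.34 times more in CTX. Fezf2, the zinc finger factor of deep-layer cortical neurons and their progenitors, had 3644 and 180. Emx1 (chr6:85187438-85204462) and Emx2, homeobox genes of the cortical primordium, had 2969 and 3421 in CTX and 495 and 1359 in MGE. Neurog2, which drives glutamatergic neurogenesis, had 2169 and 340.

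Dmrt3 and Tfap2c were marked in CTX alone, with 2629 and 2430 covered bases, and Dmrta2, a relative of Dmrt3, had 2081 in CTX and 297 in MGE. Tfap2c encodes an AP-2 factor of cortical progenitors, and its 2430-bp peak was the widest interval found in CTX alone. Outside the rule, Dmrta1 had 2355 in CTX and 1258 in MGE, Lhx9 had 2566 and 1594 and Neurog1 had 1125 and 844. Lef1, an effector of Wnt signalling, had 2532 and 2560. Nr2f1, which encodes COUP-TF1 and is used in both territories, had 3234 in CTX and 4263 in MGE.

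Glutamatergic neuron genes divided into 6 higher in CTX, none higher in MGE and 15 that did not meet the rule. The T-box factors Eomes, of intermediate progenitors, and Tbr1, of early cortical neurons, had 1699 and 1187 covered bases in CTX and 445 and 429 in MGE. The basic helix-loop-helix genes Neurod2, Nhlh1, Nhlh2 and Bhlhe22 had 1894, 1591, 1411 and 1605 in CTX, and 138, 346, 221 and 434 in MGE. Neurod1, another basic helix-loop-helix gene of this list, had 762 in CTX and 492 in MGE and did not meet the rule. The vesicular glutamate transporters Slc17a6 and Slc17a7 had 851 and 681 in CTX and 541 and 452 in MGE. Neurod6, a marker of cortical neurons, had 242 in CTX and 328 in MGE, and Neurod4 had no peak in either list. Factors shared with other neurons lay high in both lists: Bcl11a had 4223 and 3096, Sox5 4277 and 3124 and Bcl11b 1764 and 2056 in CTX and MGE.

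The cortical hem, a signalling centre at the medial edge of the cortex, and the Cajal-Retzius neurons it produces were examined with 18 genes, of which 7 were higher in CTX and 1 in MGE. Among the signalling genes, Wnt8b had 2827 covered bases in CTX and 586 in MGE, Bmp7 had 2154 and 173, Wnt3a had 747 and 0 and the Wnt agonists Rspo3 and Rspo1 had 1598 and 1071 against 747 and 142. Other signalling genes did not meet the rule: in CTX and MGE, Wnt7b had 3503 and 2499, Axin2 3192 and 2625, Wnt5a 2611 and 2549, Fzd10 1093 and 954, Rspo2 1061 and 938, Wnt2b 832 and 1023 and Bmp4 725 and 537. The hem transcription factors Lmx1a and Msx1 had 1503 and 1160 in CTX and 575 and 0 in MGE. Genes of the Cajal-Retzius neurons themselves did not share this direction. Reln had 1542 in CTX and 1699 in MGE, Trp73 had 761 and 1119, Lhx5 had 159 and 654, and Lhx1 was higher in MGE with 792 against 291.

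**Figure D2:**
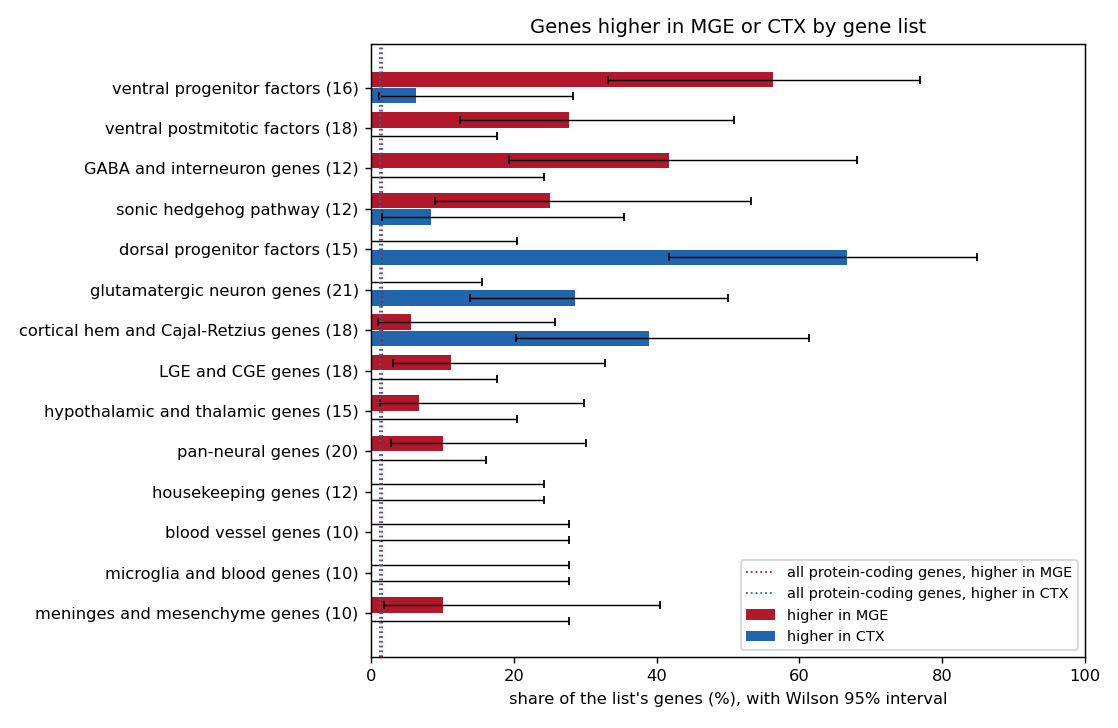
Share of each gene list (number of genes in brackets) called higher in MGE (red) or higher in CTX (blue), in percent with Wilson 95% intervals. The lists were chosen with earlier results of these data known. Dotted lines give the share over all protein-coding genes, 1.46% and 1.22%; ventral lists extend in red, dorsal and cortical hem lists in blue, and the housekeeping, vessel and microglia lists have no gene in either direction.

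Genes of tissue that lies next to the dissected regions, or of other cell types, were counted in the same way. Among 18 genes of the LGE and CGE, Rarb (1164 in MGE, 572 in CTX) and Tac1 (1186 and 303) were higher in MGE and none was higher in CTX. The difference at Rarb was 0 bases with the gene's 5′ end as the only start site, and the MGE peak at Tac1 had a −log10 q of 1.33. Of 15 hypothalamic and thalamic genes, Otp alone met the rule, with 538 in MGE and 0 in CTX. In this list 6 genes had a peak in MGE and none in CTX, as had 2.84% of all genes. These peaks were slight, with 126 (Foxb1) to 538 covered bases. Their highest −log10 q per gene ran from 1.05 (Foxb1) to 2.90 (Rax), and was 1.56 at Otp. Of 20 pan-neural genes, Dcx (843 and 0) and Myt1l (1962 and 554), both genes of young neurons, were higher in MGE, and Sox2 had 2222 and 2141. Blood vessel genes summed to 3737 covered bases in MGE and 3815 in CTX, and Cdh5, Tie1, Tek and Emcn were at 0 in both. Microglia and blood genes summed to 3482 and 4144, with Csf1r, Aif1, Cx3cr1, Ptprc and Gata1 at 0 in both. Meningeal and mesenchymal genes summed to 4543 and 5594, 1 of 10 was higher in MGE (Foxc1, 1127 and 511), and Lum was at 0 in both. No member of the vessel and microglia lists met the rule. The part of adjacent tissue in the differences was not tested.

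The difference at identity genes was one of width as well as presence. At the 19 ventral genes higher in MGE, the widest MGE peak was 1910 bp at the median and the peaks covered an annotated TSS at all 19. In the CTX list 13 of the 19 genes had any peak within the window, the median width of the widest was 356 bp, and 8 genes had a TSS inside a peak. At the 16 dorsal genes higher in CTX, the widest CTX peak was 1703 bp at the median. MGE had a peak at 14 of these genes, with a median of 432 bp for the widest, and a TSS lay inside an MGE peak at 5. The widest peak reached 1000 bp at 17 ventral genes in MGE and 1 in CTX, and at 15 dorsal genes in CTX and 1 in MGE. These widths follow from the same covered bases that made the calls and are given as a description.

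**Figure D3:**
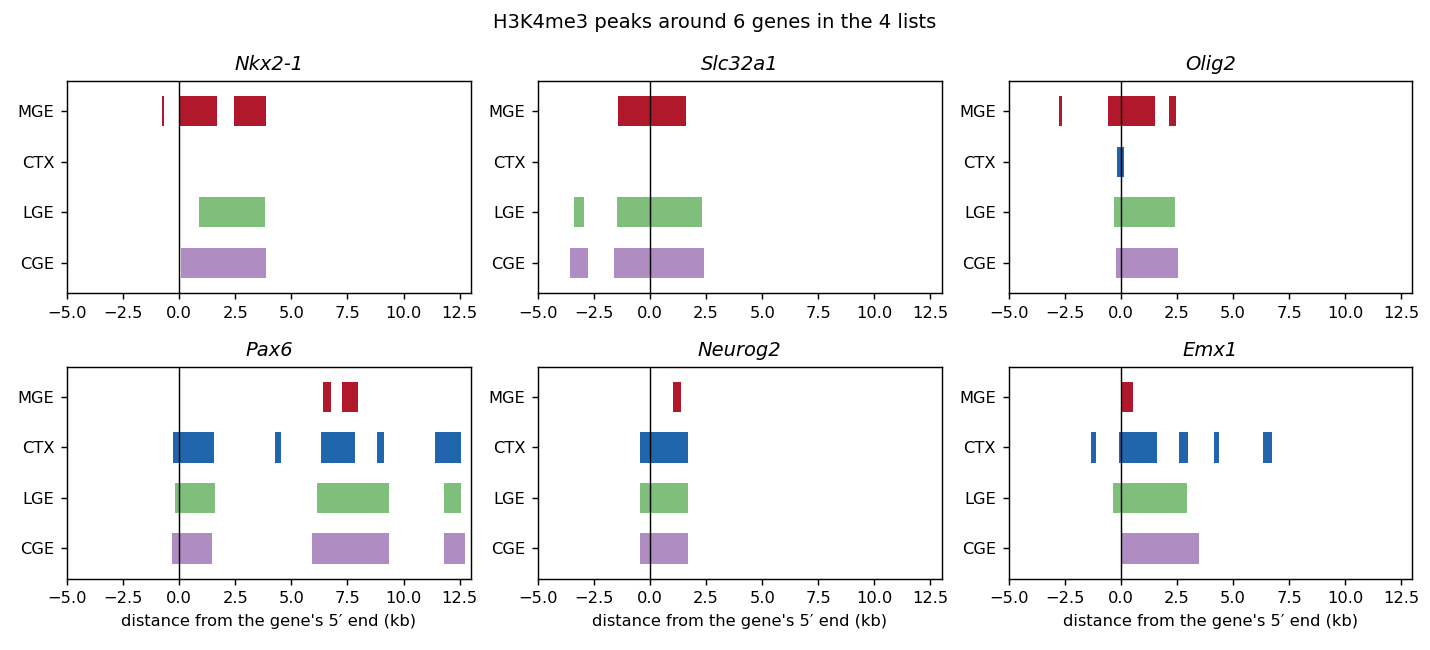
H3K4me3 peaks of the MGE (red), CTX (blue), LGE (green) and CGE (purple) lists around 6 genes, drawn to scale as bars against the distance from each gene's 5′ end (kb, positive values in the direction of transcription). At Nkx2-1 and Slc32a1 no CTX peak was listed, and at Olig2 CTX had a single narrow peak. At Pax6, Neurog2 and Emx1 the widest MGE peak was narrower than the widest peak of each of the other 3 lists.

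Individual genes showed how the narrow remnants were placed. At Neurog2 the CTX peak ran from 460 bp before to 1708 bp after the 5′ end with a −log10 q of 20.1, and the MGE peak covered 340 bp, from 1037 to 1376 bp downstream, with a −log10 q of 1.29. At Emx1 the MGE peak covered 495 bp next to the 5′ end (−log10 q 1.72), and CTX had 5 peaks, the widest of 1707 bp. At Pax6 the CTX peak over the first start site spanned 1818 bp and was without an MGE counterpart, and both MGE peaks, of 358 and 704 bp, lay further downstream, the first of them over other start sites. In reverse, Gad1 had MGE peaks of 1057 and 606 bp and 1 CTX peak of 129 bp. Several of the remnants were weak peaks. Lhx2 was not reduced to a remnant in MGE, where it had 3718 covered bases and 6 peaks, the widest of 1298 bp. Its strongest MGE peak, of 569 bp, had a −log10 q of 19.6.

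Promoter windows of 300 bases (250 before to 50 after the RefSeq start, GRCm38) were found for 15 of the 19 ventral and 13 of the 16 dorsal genes. The window was covered in full in the list where the gene was higher at 7 ventral and 7 dorsal genes, and had no covered base in the other list at 11 and 9. Of those 9 dorsal windows 3, at Neurod2, Nhlh2 and Tbr1, had no covered base in any of the 4 lists. The Lhx2 window had 300 covered bases in MGE and 289 in CTX. Both held at 4 ventral genes (Lhx6, Npy, Slc32a1 and Sp9) and 4 dorsal genes (Dmrt3, Fezf2, Neurog2 and Pax6). At Dlx1, Gad2, Emx1 and Emx2 the window was covered in full in both lists, so the difference in covered bases lay outside it. These windows lie near the start sites whose covered bases made the calls, so their counts are a description. Windows of genes that did not meet the rule were not counted. A pair of windows from each side is shown because it is these stretches that were marked in one region and bare in the other. They are written 5′ to 3′ on the gene's strand, in lower case, with matches to the 6 motifs named below in capitals.
Slc32a1 promoter, chr2:158610508-158610807, plus strand: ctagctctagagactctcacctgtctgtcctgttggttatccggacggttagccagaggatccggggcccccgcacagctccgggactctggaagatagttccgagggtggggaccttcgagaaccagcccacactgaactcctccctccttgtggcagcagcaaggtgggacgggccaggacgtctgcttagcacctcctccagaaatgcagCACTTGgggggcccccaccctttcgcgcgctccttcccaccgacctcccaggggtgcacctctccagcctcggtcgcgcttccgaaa
Lhx6 promoter, chr2:36105359-36105658, minus strand: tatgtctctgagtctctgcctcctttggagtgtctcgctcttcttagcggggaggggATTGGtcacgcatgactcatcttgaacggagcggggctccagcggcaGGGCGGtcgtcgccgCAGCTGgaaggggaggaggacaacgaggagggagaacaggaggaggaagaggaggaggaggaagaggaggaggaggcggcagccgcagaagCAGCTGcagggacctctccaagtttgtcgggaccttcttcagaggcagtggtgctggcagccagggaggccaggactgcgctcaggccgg
Neurog2 promoter, chr3:127632886-127633185, plus strand: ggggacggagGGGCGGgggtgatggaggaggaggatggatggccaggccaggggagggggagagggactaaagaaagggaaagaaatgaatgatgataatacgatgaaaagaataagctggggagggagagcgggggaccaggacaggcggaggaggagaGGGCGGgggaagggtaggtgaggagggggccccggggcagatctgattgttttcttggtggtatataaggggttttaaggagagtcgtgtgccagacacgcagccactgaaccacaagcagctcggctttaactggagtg
Fezf2 promoter, chr14:12345816-12346115, minus strand: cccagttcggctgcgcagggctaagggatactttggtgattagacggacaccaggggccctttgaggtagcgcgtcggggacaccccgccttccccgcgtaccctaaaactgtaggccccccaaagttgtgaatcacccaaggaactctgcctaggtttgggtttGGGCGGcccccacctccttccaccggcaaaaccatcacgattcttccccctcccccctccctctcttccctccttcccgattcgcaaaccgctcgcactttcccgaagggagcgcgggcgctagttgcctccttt

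The 4 windows held 17, 16, 10 and 20 CpG dinucleotides at a GC content of 63.3, 63.3, 58.0 and 61.3%. Each was covered in full in LGE and CGE.

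The LGE and CGE lists took no part in the calls at these genes. They offered a reading of the same loci in the other eminences. At all 19 ventral genes higher in MGE, the LGE and the CGE percentile lay nearer that of MGE than that of CTX. At all 16 dorsal genes higher in CTX, both lay nearer that of CTX. The median LGE percentile was 95.0 for the ventral genes, beside 96.9 in MGE and 39.6 in CTX. For the dorsal genes it was 95.6, beside 39.9 in MGE and 95.8 in CTX, and the CGE medians were 94.0 and 94.9. Emx1, for instance, had 3337 covered bases in LGE and 3453 in CGE, and Nkx2-1 had 2934 and 3804. The widest peak reached 1000 bp at 17 of the 19 ventral genes in LGE and at all 19 in CGE, and at all 16 dorsal genes in both. In LGE it was 684 bp at Gsx1 and 665 bp at Lhx8. Over all peaks the LGE and CGE lists had wider ones, with medians of 1168 and 1240 bp against 563 in MGE and 701 in CTX. Wide peaks there were not always strong. At Nkx2-1 the highest −log10 q was 3.52 in LGE and 30.9 in CGE, beside medians of 39.97 and 79.4 over all peaks of these lists. The part of cells from neighbouring regions in these lists was not tested.

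Some hem genes had another pattern. Wnt3a had no peak in LGE or CGE, as in MGE, and Wnt8b had 355 covered bases in LGE and 1417 in CGE against 2827 in CTX. The same was counted over all genes that met the rule. Of the 320 genes higher in MGE, 245 had an LGE percentile and 254 a CGE percentile nearer that of MGE. Of the 268 higher in CTX, 104 and 108 were nearer MGE.

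**Figure D4:**
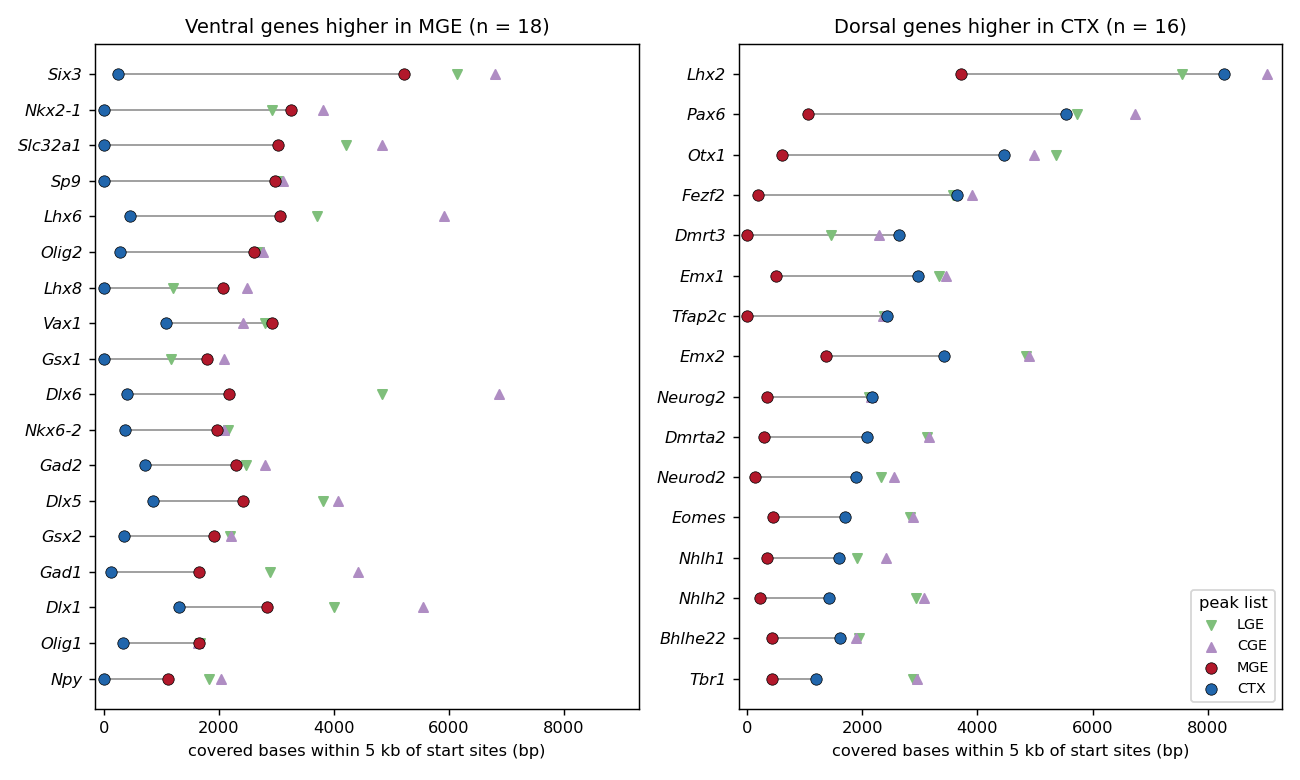
Covered bases within 5 kb of start sites (bp) at 18 of the 19 ventral genes higher in MGE (left) and the 16 dorsal genes higher in CTX (right). Red and blue circles are the MGE and CTX lists, joined by a line, and green and purple triangles are LGE and CGE, 1 value per list; every triangle lies above the lower of both circles, and many lie beyond the higher one, as at Dlx6 (2183 in MGE, 4836 in LGE, 6877 in CGE).

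Outside the lists, the 10 genes with the largest differences toward MGE were described by their values. Grik3, a kainate receptor subunit, had 2633 covered bases in MGE and none in CTX. Anks1 had 4423 and 1785, and Elmo1, an adaptor in Rac activation, had 3771 and 1173. The neuronal membrane glycoprotein gene Gpm6a had 2830 and 456, Mapk10, which encodes the kinase JNK3, 2351 and 185, and the adhesion gene Dscaml1 2113 and 149. The others were Coro1c (4269 and 1940), Fam222a (3335 and 1136), Cbfa2t3 (2857 and 772) and Dpp6 (3152 and 1205), an auxiliary subunit of potassium channels. With the gene's 5′ end as the only start site, the differences at Anks1, Dpp6, Elmo1 and Coro1c were −146, 0, 96 and 858 bases, and none kept its call. All 10 had between 2375 and 5723 covered bases in LGE and CGE.

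Toward CTX, the 10 largest differences outside the lists were at the following genes. Nfatc4, a factor controlled by calcineurin, had 3523 covered bases in CTX and 545 in MGE. The neighbouring zinc finger genes Zic5 and Zic2 had 3078 and 3698 in CTX and 329 and 1187 in MGE. Nfix, of the nuclear factor I family, had 4398 and 1803, and its difference of −888 bases at the 5′ end alone did not meet the rule. Sp5, a Wnt target, had 2202 and 363, and the retinoic acid receptor gene Rarg had 3459 and 1645. The adhesion gene Alcam had 3227 and 622, Inhbb, which encodes a subunit of activins and inhibins, 3427 and 948, Tnfrsf19 3626 and 1226, and Adamts9 2452 and 613. Sp5 had 767 covered bases in LGE, and the other 9 had at least 2511 there.

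Joined over both lists, the peaks formed 16871 intervals with a peak of each list, 8188 in MGE only and 4439 in CTX only. At a −log10 q of at least 2 the order was reversed, with 2993 in MGE only and 3551 in CTX only. The shared intervals had a median width of 933 bp, and 74.7% lay over an annotated TSS. Intervals of 1 list were narrow, 180 bp in MGE and 205 bp in CTX at the median, and mostly far from start sites. Of those in MGE only, 5.96% lay over a TSS and 64.4% beyond 5 kb of any, and of those in CTX only, 7.25% and 57.7%. A −log10 q under 2 was the highest reached by 68.6% of the MGE-only and 40.5% of the CTX-only intervals. Weak peaks were thus the majority of the intervals found in MGE only, but not of those found in CTX only.

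Presence in the LGE or CGE lists was counted by position and by −log10 q. Of the MGE-only intervals 19.9% (19.0 to 20.7%) overlapped an LGE or CGE peak, and of the CTX-only intervals 19.6% (18.4 to 20.7%), beside 93.7% of the shared ones. Over a TSS the shares were 70.1% (65.9 to 74.0%) for MGE only and 54.7% (49.2 to 60.01%) for CTX only. Beyond 5 kb they were 12.2 and 9.80%. The shares also differed by −log10 q. Between 2 and 5 the shares were 33.4% (31.5 to 35.3%) for MGE only and 20.8% (19.2 to 22.4%) for CTX only. Between 5 and 10 they were 55.5% (49.2 to 61.5%) of 247 intervals and 30.4% (25.3 to 36.1%) of 276. At 10 and over they were 78.8% (62.2 to 89.3%) of 33 and 32.3% (18.6 to 49.9%) of 31. At a −log10 q between 1 and 2 they were 12.4% for MGE only and 16.1% for CTX only. An equal −log10 q need not be equal strength in lists of different depth, and no difference between regions is drawn from these shares.

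Identity genes were also among the widest intervals of 1 list. In MGE only they were those at Slc32a1 (3022 bp), Grik3 (2633 bp), Sp9 (2244 bp), Anks1 (2136 bp) and Elmo1 (2133 bp), and all 5 overlapped LGE and CGE peaks. In CTX only the widest were at Tfap2c (2430 bp), E130114P18Rik (2214 bp), in Ston2 over an antisense transcript (1954 bp), at Pax6 (1818 bp) and in intergenic sequence 59450 bp from the nearest protein-coding start, that of Nepro (1655 bp). By −log10 q the leading MGE-only intervals lay at Trappc8 (30.5), downstream of Nkx2-1 (26.3), at Scrt1 (20.7 and 17.2), a neuronal repressor, and over the start of Nkx2-1 (16.0). The leading CTX-only intervals lay in Cdon (22.0), Eif4a3 (20.04), upstream of Emx1 (19.98), in Rab11fip2 (19.6) and in Otx1 (17.2).

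The loci with the most intervals of 1 list included several identity genes. Within 100 kb of the 5′ end of Nkx2-1 there were 13 MGE-only intervals, no CTX-only interval and no shared one. Around Emx1 there were 15 CTX-only intervals and 1 MGE-only interval. For comparison, the median gene had 1 MGE-only and 0 CTX-only intervals within that distance. Other leading loci toward MGE were Dlx1 (12 and 0), Lmo1 (11 and 1) and Olig1 (10 and 1), and toward CTX Pax6 (9 and 0), Tcf3 (9 and 0), Cct3 (9 and 1) and Cdon (8 and 0), with the count of the other list second. Counting only intervals beyond 5 kb of any TSS, 28 of the 46 ventral loci had more MGE-only intervals, 3 more CTX-only ones and 15 equal numbers. For the 36 dorsal loci, 7 had more MGE-only, 13 more CTX-only and 16 equal numbers. The MGE list had more such intervals in all, 5269 against 2561, and over all 21938 genes 27.1% had more MGE-only and 9.44% more CTX-only intervals, beside 60.9 and 6.52% of the ventral and 19.4 and 36.1% of the dorsal loci. Neighbours such as Dlx1 and Dlx2 share intervals, and with genes under 100 kb apart taken once 25 of 43 ventral loci had more MGE-only intervals.

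Some of the strongest intervals named above did not overlap an annotated TSS. Shown are the 3 that lay more than 5 kb from the nearest protein-coding start, and these were absent from the other 3 lists. The interval downstream of Nkx2-1 (chr12:56525429-56525733) lay in an intron of the transcript Sfta3-ps, 9373 bp from the nearest Nkx2-1 start and 3527 bp from the nearest start of any gene, with a 4.88-fold enrichment. The interval upstream of Emx1 (chr6:85165376-85166177, 802 bp) was intergenic, 21261 bp from the Emx1 start and 10168 bp from any start, with 6.77-fold enrichment. The interval in an intron of Rab11fip2 (chr19:59911608-59911946) lay 31054 bp from that gene's start and 10546 bp from any start, with 10.5-fold enrichment. The central 300 bases of each are given on the plus strand of GRCm38, with the same motifs in capitals.
Nkx2-1 downstream interval, MGE only, chr12:56525431-56525730: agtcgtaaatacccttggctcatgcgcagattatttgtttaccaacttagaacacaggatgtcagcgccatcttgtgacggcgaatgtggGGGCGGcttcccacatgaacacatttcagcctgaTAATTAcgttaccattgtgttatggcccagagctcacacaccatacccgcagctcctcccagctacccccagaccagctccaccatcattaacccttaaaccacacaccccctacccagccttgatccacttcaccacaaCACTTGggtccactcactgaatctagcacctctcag
Emx1 upstream interval, CTX only, chr6:85165627-85165926: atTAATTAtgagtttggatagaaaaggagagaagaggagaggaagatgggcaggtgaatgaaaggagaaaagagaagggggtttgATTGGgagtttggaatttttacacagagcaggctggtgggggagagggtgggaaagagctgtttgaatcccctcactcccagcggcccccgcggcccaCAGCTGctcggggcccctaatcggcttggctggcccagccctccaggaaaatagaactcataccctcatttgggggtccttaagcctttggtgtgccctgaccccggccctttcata
Rab11fip2 intronic interval, CTX only, chr19:59911627-59911926: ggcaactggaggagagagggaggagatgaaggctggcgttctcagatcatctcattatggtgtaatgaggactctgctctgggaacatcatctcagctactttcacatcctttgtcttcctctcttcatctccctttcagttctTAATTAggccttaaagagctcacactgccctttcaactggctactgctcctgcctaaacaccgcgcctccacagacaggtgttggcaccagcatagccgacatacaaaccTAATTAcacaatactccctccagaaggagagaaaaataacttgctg

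Each of the 3 sequences held the homeodomain core TAATTA, once, once and 2 times. The Nkx2-1 interval also held CAAGTG, the core bound by NKX2 factors, and the Emx1 interval held the E-box CAGCTG. They had 8, 6 and 4 CpG dinucleotides, fewer than the 4 promoters above.

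The same 6 motifs were counted on both strands in the central 300 bases of all intervals, and a match is a description and not a binding site. TAATTA and CAGCTG read the same on both strands. Among intervals beyond 5 kb of a TSS, TAATTA was held by 16.5% (15.1 to 18.01%) of the 2561 CTX-only windows, 6.21% (5.59 to 6.89%) of the 5269 MGE-only windows and 11.2% (9.95 to 12.5%) of the 2319 shared windows. The median GC content was close in both single-list classes, at 51.0 and 50.7%. With weak peaks left out (−log10 q of at least 2) the shares were 20.5% for CTX only and 7.27% for MGE only. The NF-Y motif CCAAT had the same order, with 35.8% (34.0 to 37.7%) in CTX only, 32.3% (30.4 to 34.2%) in shared and 26.9% (25.7 to 28.1%) in MGE only. The E-box CAGCTG, bound by basic helix-loop-helix factors, went the other way, at 19.99% (18.5 to 21.6%) in CTX only, 23.6% (21.9 to 25.4%) in shared and 24.5% (23.3 to 25.6%) in MGE only. CAGATG, an E-box of NEUROG and NEUROD factors, was held by 22.6 and 22.9% of CTX-only and MGE-only windows, and CAAGTG by 16.6 and 17.1%. The GC box GGGCGG was held by 10.9 and 8.81%, against 29.3% of shared windows.

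Promoters gave less separation. TAATTA was held by 7.00% (4.22 to 11.4%) of 200 promoters of genes higher in CTX, 2.87% (1.40 to 5.802%) of 244 higher in MGE and 4.60% of all 16505 matched promoters, with overlapping intervals. GGGCGG was held by 56.0, 52.5 and 48.0% of these promoters, CAGCTG by 18.5, 21.3 and 15.3%, CAGATG by 11.5, 17.2 and 14.5%, CAAGTG by 16.5, 13.5 and 12.8% and CCAAT by 32.0, 34.8 and 38.7%.

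**Figure D5:**
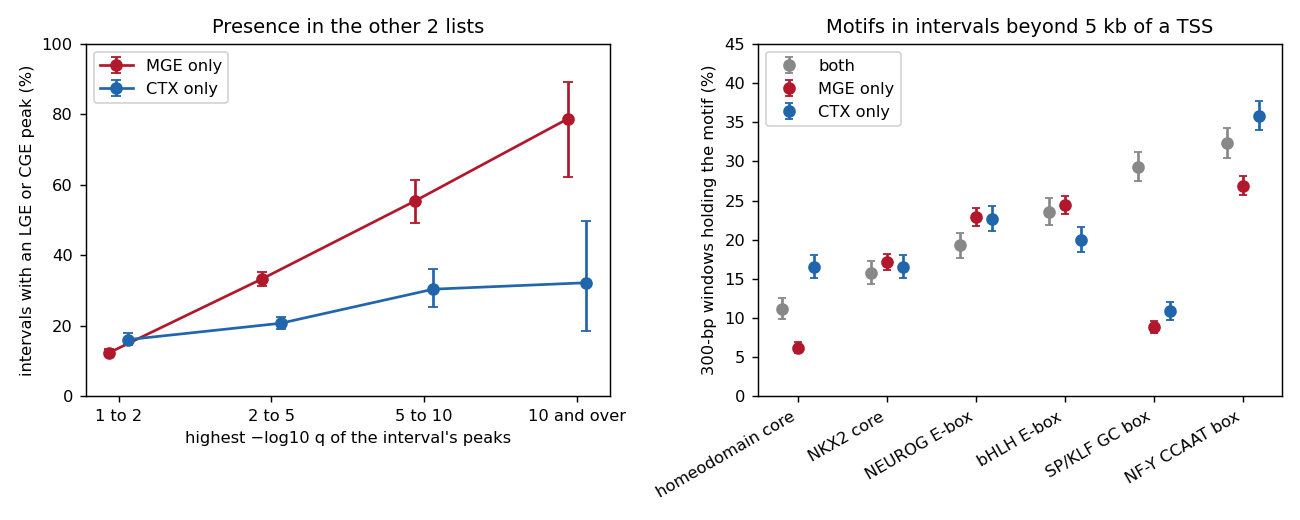
Left, share of MGE-only (red) and CTX-only (blue) intervals that overlapped an LGE or CGE peak (%) by the highest −log10 q of their peaks. Right, share of the central 300-bp windows of intervals beyond 5 kb of a TSS that held each motif (%), for intervals in both lists (grey), MGE only and CTX only; bars are Wilson 95% intervals, and the homeodomain core was held by 16.5% of CTX-only and 6.21% of MGE-only windows.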

How the data were processed

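Per the labels and the study's methods, nuclei of each region were profiled with an anti-H3K4me3 antibody, and the authors aligned reads with Bowtie2 to GRCm38/mm10, removed blacklisted reads and Picard duplicates, merged replicates and called broad peaks. Versions are not given in the sources used here. The deposited lists give each peak a score, a fold enrichment as a ratio to background, and −log10 p and q values. Peaks on the mitochondrial genome (4 in MGE, 3 in CTX) were left out.

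Covered bases, intervals (overlap of at least 1 bp), motif matches and Wilson 95% intervals were computed in Python 3.11.15 (pandas 2.3.3, scipy 1.17.1, pysam 0.24.0) with GENCODE M21 and RefSeq sequence. Interval arithmetic was tested on simulated data, and 200 of 200 runs gave the result of counting every base. Peaks carry no strand, so a gene and an antisense transcript in 1 window share them. Members, gene lists and motifs were chosen with earlier results of these data known. Genes named are list members, the 10 largest differences per direction outside the lists, the 5 widest and 5 strongest intervals and the 5 fullest loci per class. Values of some list members are not reported here, although the counts include them. Other marks were not analysed here. Alternatives changed the peaks, window, start sites or rule.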

Additional observations from a re-analysis of the deposited data

How the results depend on the processing

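Over the alternatives run, 19 to 23 ventral genes were higher in MGE, 14 to 18 dorsal genes were higher in CTX and 0 dorsal genes were higher in MGE. Ventral genes higher in CTX numbered 2 in place of 1 with the percentile rule, a 10 kb window, the gene 5′ end only, a −log10 q of at least 2 or lists of equal length, and 3 with peaks of at least 500 bp. The median percentile difference was 15.22 and −10.41 points for ventral and dorsal genes in a 2 kb window, and 15.21 and −9.33 in a 10 kb window. Of the 19 and 16 genes called, 17 and 12 kept their call under all 8 alternatives of peaks and window. The calls at Gad1, Gsx1, Emx2, Lhx2, Nhlh2 and Tbr1 were lost under at least 1 of them. All 19 and 16 genes are autosomal, so the alternative limited to autosomes could not change their covered bases.

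Over all genes the counts depended on the rule. Genes higher in MGE and CTX were 513 and 553 at 1.5 times, 623 and 638 at a percentile difference of 20 points, and 605 and 682 with peaks of at least 500 bp, and genes higher in CTX fell to 141 at 3 times. Counts in 1 list depended on weak peaks, and the order of the regions was reversed without them. With a −log10 q of at least 2 there were 352 genes marked in MGE only and 493 in CTX only, and 2993 and 3551 such intervals. With the MGE list cut to the length of the CTX list there were 408 and 496 genes and 4701 and 4837 intervals. Genes higher in MGE and CTX were then 281 and 313, and 294 and 349 at a −log10 q of at least 2. Peaks of at least 500 bp left 1649 MGE-only and 1477 CTX-only intervals. The share of intervals with an LGE or CGE peak was 41.5% for MGE only and 32.6% for CTX only at a −log10 q of at least 2, 28.9 and 22.5% at equal length, 76.2 and 71.7% for peaks of at least 500 bp and 17.8 and 17.1% with peaks under 1 kb apart joined.

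Some named genes changed direction. The MGE minus CTX difference was −146 bases at Anks1 at the gene 5′ end only, −303 at Tac1 at a −log10 q of at least 2 and at equal length, −511 at Foxc1 at a −log10 q of at least 2, and 44 at Rspo3 with peaks of at least 500 bp. Otp lost its call under 5 of 8 alternatives. No paired analysis was possible because peaks had been called on merged replicates, and leaving out a replicate was not possible for the same reason. Read numbers behind the peaks are not in the files.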
